A study of Mus musculus with 4 samples.

Results

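The C/EBP transcription factors were followed across the cell classes of the adult mouse mammary gland. The genes Cebpa, Cebpb, Cebpd and Cebpg were chosen by name, and the set was selected on values of these same data, namely its CPM (UMIs scaled to the library's total in a cell class) and its share of positive cells at 8 against 9 weeks of age. Of the 4 named genes, 3 (Cebpa, Cebpb and Cebpg) were matched among the 27998 genes counted, and Cebpd was not analysed here. Their levels by age and by cell class are therefore descriptions and were not tested, whereas the comparison of genotypes, which did not choose them, was tested.

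C/EBP proteins are basic leucine zipper factors that bind DNA as dimers with one another or with related zipper proteins. Cebpb encodes a factor induced by inflammatory cytokines, cAMP and hormones, and in the mammary gland it is known for its need in ductal growth and in the specification and differentiation of secretory alveolar cells. Cebpa encodes a factor linked to growth arrest and to the differentiation of fat, liver and myeloid cells. Cebpg encodes a short family member without the classical activation domain, which acts mainly as a dimer partner.

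The series held 4 single-cell libraries of sorted mammary gland cells from C57BL/B6 mice, made with 10x Chromium 3′ chemistry, which tags each captured RNA near its 3′ end with a unique molecular identifier (UMI). A control and a Zeb1 MSKO library came from mice of 8 weeks, and another control and another Zeb1 MSKO library from mice of 9 weeks. The labels do not spell out MSKO, do not give the driver of the deletion or the deleted part of Zeb1, and do not say whether a library came from 1 animal or a pool, so the spread between libraries may be technical. Each age had 1 library per genotype, so that age cannot be told apart from preparation or sequencing run.

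The 4 libraries held 36884 barcodes and between 80853204 and 122122443 UMIs each, with a median of 6376 (Zeb1 MSKO, 8 weeks) to 10529.5 (Zeb1 MSKO, 9 weeks) UMIs per cell and a median mitochondrial share of 2.36% to 2.69%. Marker scores placed 11194 cells in a basal-like, 11442 in a luminal progenitor-like and 9345 in a hormone-sensing luminal-like class, in each of which all 8, 7 and 7 markers of its own were detected in every library. The luminal classes are called progenitor-like and hormone-sensing-like from here on, and 682 of 36194 barcode sequences (1.88%) occurred in more than 1 library. Fibroblast-like cells numbered 301 (control) and 389 (Zeb1 MSKO) at 8 weeks but 20 and 21 at 9 weeks, and endothelial-like cells 329 and 351 against 7 and 6. Of 148 hair follicle keratinocyte-like cells, 147 came from the Zeb1 MSKO library at 8 weeks. Zeb1 itself was at 0.05 to 1.15 CPM in the 3 epithelial classes of every library and at 55.9 to 101 CPM in fibroblast-like cells, and since the deleted part is not given, these 3′ tags check nothing about the genotype labels.

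The bases before each gene's start are shown first, as a description, and their part in the levels was not tested. All 3 matched genes had an entry in the RefSeq promoter table (build GRCm38.p6). Each run gives the 250 bases that end just before the RefSeq start, read 5′ to 3′ on the gene's own strand. Gene positions below are from GENCODE, and the RefSeq start of Cebpg lies a few bases inside the GENCODE gene, so its window overlaps that gene's first bases. Capitals mark 4 motifs searched on both strands. The TATA box was searched as TATAAA, and the core of the cAMP response element as TGACG. The box named for its letters CCAAT was searched as such, and 1 arm of the C/EBP site as TTGCG.
Cebpb (chr2:167688665-167688914, plus strand): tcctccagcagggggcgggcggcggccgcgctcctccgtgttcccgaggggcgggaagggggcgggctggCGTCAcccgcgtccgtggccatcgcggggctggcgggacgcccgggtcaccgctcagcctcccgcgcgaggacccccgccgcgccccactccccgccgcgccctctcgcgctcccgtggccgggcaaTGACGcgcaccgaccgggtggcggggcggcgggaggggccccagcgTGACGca
Cebpa (chr7:35119043-35119292, plus strand): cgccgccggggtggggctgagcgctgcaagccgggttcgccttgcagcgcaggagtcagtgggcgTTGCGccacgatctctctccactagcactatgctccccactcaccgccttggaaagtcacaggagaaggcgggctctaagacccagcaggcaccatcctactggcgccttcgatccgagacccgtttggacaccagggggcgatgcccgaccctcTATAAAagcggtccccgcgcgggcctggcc
Cebpg (chr7:35056567-35056816, minus strand): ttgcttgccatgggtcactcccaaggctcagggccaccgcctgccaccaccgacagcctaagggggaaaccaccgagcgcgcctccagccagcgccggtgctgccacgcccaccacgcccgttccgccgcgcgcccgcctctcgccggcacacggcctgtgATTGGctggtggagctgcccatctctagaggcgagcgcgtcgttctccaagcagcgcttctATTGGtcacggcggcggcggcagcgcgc
The Cebpb window held 3 cAMP response element cores, which began 180, 53 and 7 bases before the start, the first of them on the opposite strand. The Cebpa window held 1 TATA box, 30 bases before the start, and 1 arm of the C/EBP site, 185 bases before it. Cebpg had 2 CCAAT boxes, 89 and 28 bases before the start and both on the opposite strand. No match overlapped another. Over 32851 promoter windows of the same length, 17.8% held at least 1 TGACG on either strand, 12.4% TATAAA, 33.8% CCAAT and 14.5% TTGCG. A single match was thus common, while shares for several matches in a window or for a match at a given place were not computed. The Cebpb window was 81.6% G and C, at or above 99.3% of all windows, against 66.4% for Cebpa, 70.8% for Cebpg and a median of 52.4%. These matches describe the sequence only.

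Cebpb (ENSMUSG00000056501) lies at chr2:167688915-167690418 on the plus strand of GRCm38, as a protein-coding gene of 1 exon in GENCODE. In basal-like cells Cebpb stood at 2048.5 CPM in the control and 2937 CPM in the Zeb1 MSKO library at 8 weeks, against 28.4 and 23.3 CPM at 9 weeks. Both libraries of 8 weeks were far above both of 9 weeks, by 72.2-fold within control and 126-fold within Zeb1 MSKO. In progenitor-like cells the levels were 1991 and 2102 CPM at 8 weeks and 32.8 and 20.7 CPM at 9 weeks, which is 60.7-fold and 102-fold. In hormone-sensing-like cells Cebpb was at 132 and 232 CPM at 8 weeks and at 1.99 and 2.89 CPM at 9 weeks, or 66.2-fold and 80.3-fold. The ages did not overlap in any of the 3 classes.

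On the log2 scale with TMM scaling the 8 minus 9 week difference of Cebpb was 6.63 ± 0.56 (SD over the control and the Zeb1 MSKO difference, n = 2) in basal-like, 6.27 ± 0.47 in progenitor-like and 6.10 ± 0.20 in hormone-sensing-like cells. Ranked among all genes tested, Cebpb had the largest difference of 12904 genes in basal-like cells and of 12863 in progenitor-like cells. In basal-like cells C2cd4b, at 6.61, was level with it within the SD, and in progenitor-like cells Cxcl2 came next with 5.57. It ranked 3 of 13209 in hormone-sensing-like cells, where Jchain, an immunoglobulin-joining chain of plasma cells, led with 10.06. Over all genes the median difference was -0.03, -0.02 and -0.01 in the 3 classes, and the 95th percentile 1.10, 1.13 and 1.27. As this contrast chose the genes, nothing is read from these ranks.

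**Figure D1:**
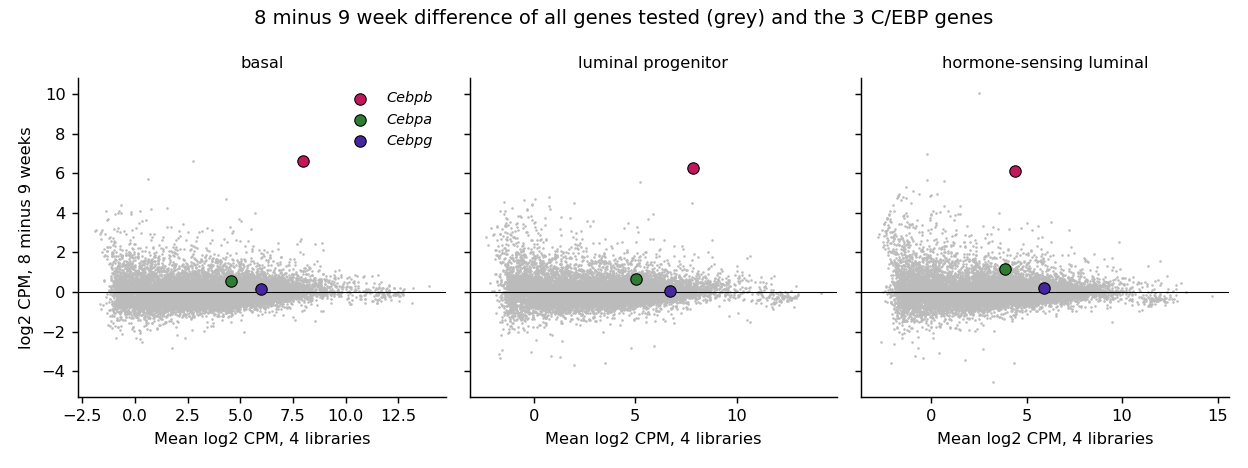
Each grey point is a gene tested in one epithelial class, with its mean log2 CPM over 4 libraries on the x axis and its log2 CPM at 8 minus 9 weeks, averaged over the genotypes, on the y axis. Cebpb stands at 6.63, 6.27 and 6.10 from left to right, while Cebpa (0.56, 0.67, 1.16) and Cebpg (0.15, 0.03, 0.21) lie within the cloud of other genes.

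Nearly every basal-like cell of 8 weeks held Cebpb. A Cebpb UMI was found in 99.5% of 1773 control cells (Wilson 95% interval 99.1 to 99.8) and in 99.5% of 4938 Zeb1 MSKO cells (99.3 to 99.7), with a median of 15 and 16 UMIs per cell. At 9 weeks 21.5% of 2076 control cells (19.8 to 23.3) and 17.9% of 2407 Zeb1 MSKO cells (16.4 to 19.4) held one, with a median of 0. These intervals cover counting error only. No basal-like cell of 9 weeks held more than 5 Cebpb UMIs, whereas at 8 weeks 89.1% and 89.7% of cells did. The median depth of these cells was 7690 and 5525.5 UMIs at 8 weeks and 7990.5 and 7806 at 9 weeks.

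The same held after each cell was thinned to 2500 UMIs, the depth at which cells of all libraries can be set side by side. The share of basal-like cells with a Cebpb UMI was then 95.6% and 97.8% at 8 weeks and 6.86% and 5.75% at 9 weeks. In progenitor-like cells the thinned shares were 91.9% and 92.9% against 8.18% and 5.08%, and without thinning 98.2% and 98.2% against 24.1% and 15.9%. The higher level at 8 weeks was thus seen in nearly all cells of both classes. The highest single cells held 110 UMIs (basal-like) and 130 UMIs (progenitor-like) at 8 weeks and 5 and 6 at 9 weeks.

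**Figure D2:**
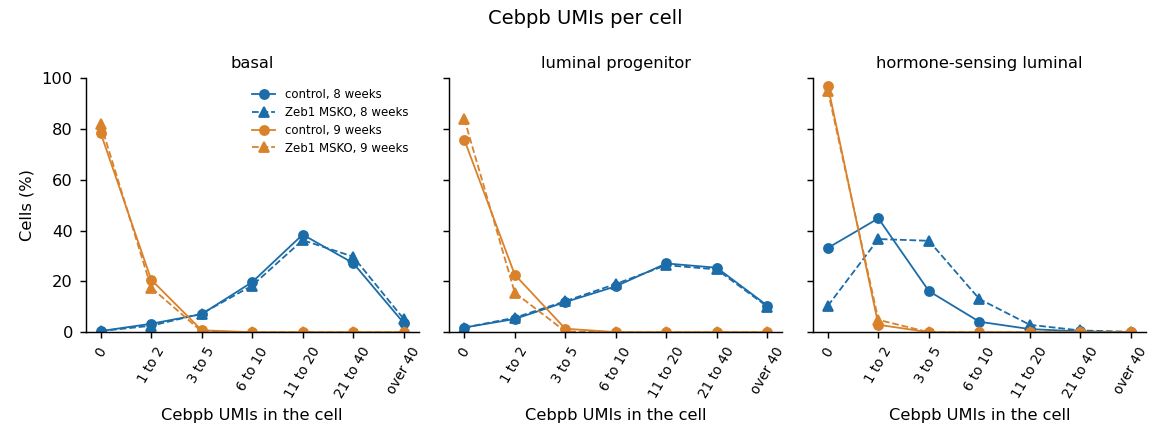
Share of cells (y axis, percent) by the number of Cebpb UMIs in the cell (x axis, binned) for the 3 epithelial classes, 1 line per library. In basal-like and progenitor-like cells the lines of 8 weeks peak at 11 to 20 UMIs and those of 9 weeks at 0, and in hormone-sensing-like cells the lines of 8 weeks peak at 1 to 2 UMIs.

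Hormone-sensing luminal-like cells, the estrogen and prolactin receptor-bearing luminal cells, had the lowest Cebpb level of the 3 epithelial classes in every library. Their CPM was 6.44% and 7.89% of that of basal-like cells at 8 weeks and 7.03% and 12.4% at 9 weeks. Thinned to 2500 UMIs, 24.3% and 40.9% of them held a Cebpb UMI at 8 weeks and 0.563% and 0.846% at 9 weeks (66.8%, 89.6%, 2.93% and 4.88% without thinning, at median depths of 14065.5, 15386, 15075 and 17259 UMIs). T or NK-like cells, which are not known for Cebpb, held a Cebpb UMI in 1 of 12 cells (control) and 11 of 18 (Zeb1 MSKO) at 8 weeks, or 6.15% and 43.3% after thinning, at median depths of 3713 and 4187 UMIs, and in 0 of 6 and 0 of 9 cells at 9 weeks, which allows shares of up to 50% and 33.3%. The Zeb1 MSKO share in hormone-sensing-like cells at 8 weeks was no higher than that of the 18 T or NK-like cells, and the thinned control share lay within the unthinned interval of the 12 T or NK-like cells (1.49% to 35.4%). With so few T or NK-like cells, expression and background in this class were not told apart.

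Markers of the other epithelial classes were measured beside this level. The 8 basal markers summed to 81.1 and 421 CPM in hormone-sensing-like cells at 8 weeks, which is 0.421% and 2.77% of their sum in basal-like cells, and the 7 luminal progenitor markers to 1.35% and 1.87% of their sum in progenitor-like cells. Cebpb in hormone-sensing-like cells was at 6.63% and 11.02% of its progenitor-like level, a larger share than that of either marker list. The gates left out cells high in the markers of another class but set no limit on Cebpb, so the marker and Cebpb shares are not on equal terms. How far free RNA added to Cebpb in this class was not tested.

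Stromal and vascular cells also held Cebpb at 8 weeks. Fibroblast-like cells were at 2294 CPM in the control and 2221 CPM in the Zeb1 MSKO library, and endothelial-like cells at 1393 and 1596.5 CPM. At 9 weeks the 20 and 21 fibroblast-like cells held 1 and 3 Cebpb UMIs in all. The 7 and 6 endothelial-like cells held 0 against a floor of 3 UMIs per library, so the level at 8 weeks was at least 17.3-fold and 27.2-fold higher. The 147 hair follicle keratinocyte-like cells of the Zeb1 MSKO library at 8 weeks were at 794 CPM. In the order of mean levels at 8 weeks, basal-like (2493 ± 628 CPM, SD, n = 2), fibroblast-like (2258 ± 51.7) and progenitor-like cells (2047 ± 78.4) came first. The range of basal-like cells overlapped those of fibroblast-like and of progenitor-like cells. The ranges of fibroblast-like (2221 to 2294 CPM) and progenitor-like cells (1991 to 2102 CPM) did not overlap each other. Endothelial-like (1495 ± 144) and then hormone-sensing-like cells (182 ± 70.5) followed with no overlap. At 9 weeks progenitor-like (26.8 ± 8.57 CPM) and basal-like cells (25.9 ± 3.56) overlapped, and hormone-sensing-like cells (2.44 ± 0.63) were below both.

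Markers of the cells that were scarce at 9 weeks were measured beside Cebpb in the epithelial classes. The 6 fibroblast markers summed to 147 and 232 CPM in basal-like cells at 8 weeks and to 209 and 179 CPM at 9 weeks, with none at 0. In progenitor-like cells they summed to 26.8 and 76.4 CPM at 8 weeks against 3.97 and 4.95 CPM at 9 weeks. The 6 endothelial markers summed to 8.62 and 15.3 CPM in basal-like cells and 10.1 and 12.5 CPM in progenitor-like cells at 8 weeks, against 2.98 to 4.42 CPM at 9 weeks, and at most 2 of the 6 were at 0 in a library. Their part in the Cebpb levels was not tested. At 8 weeks the fibroblast marker sums were 0.0831% to 0.680% of those in fibroblast-like cells, while Cebpb in basal-like and progenitor-like cells was at 86.8% to 132% of its fibroblast-like level. Here too the gates limited the markers and not Cebpb, so nothing is read from this comparison.

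**Figure D3:**
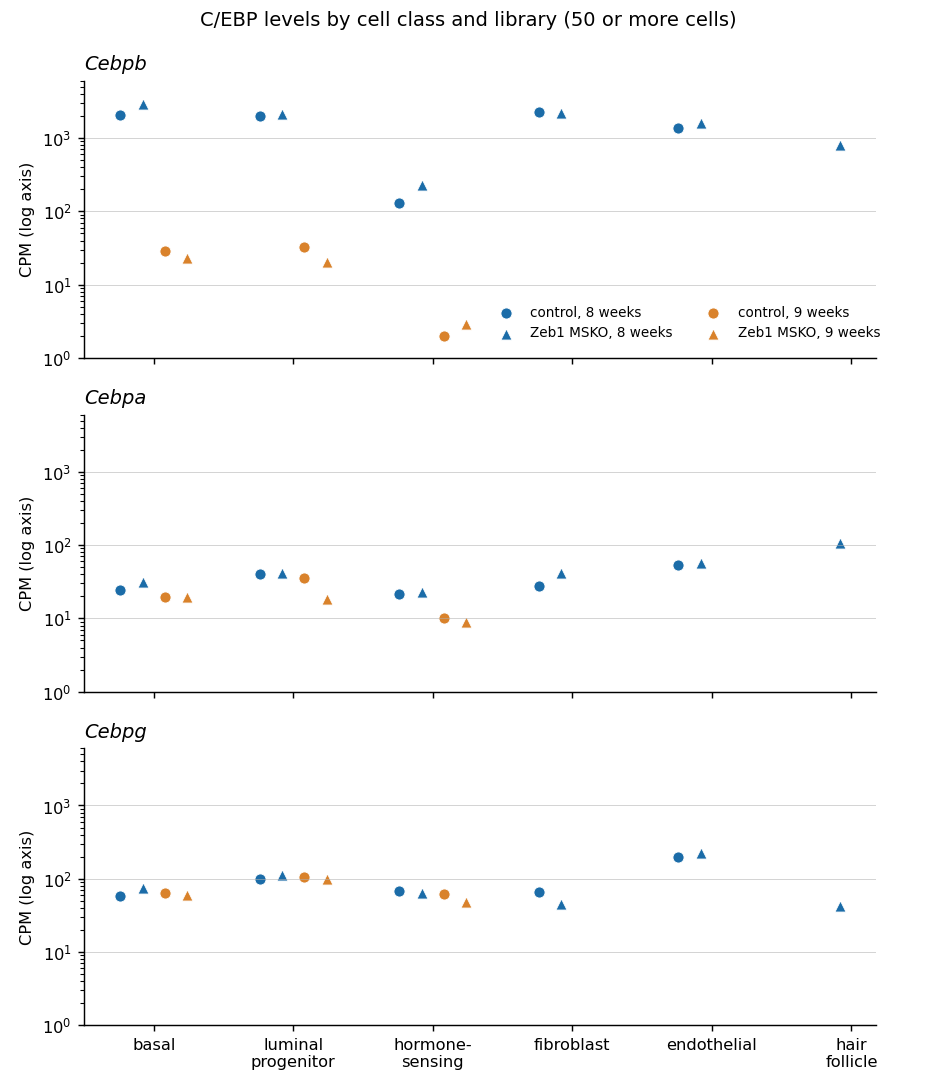
CPM (log axis) of Cebpb, Cebpa and Cebpg in each class with 50 or more cells, 1 point per library (circles control, triangles Zeb1 MSKO, blue 8 weeks, orange 9 weeks). For Cebpb the blue points of the 3 epithelial classes lie 60.7-fold to 126-fold above the orange points of the same genotype. For Cebpg blue and orange points overlap in basal-like and progenitor-like cells but not in hormone-sensing-like cells.

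Within classes Cebpb differed little beside the gap between ages. Luminal progenitor-like cells with a Lalba UMI, which mark an alveolar direction, were at 2404 and 2272 CPM at 8 weeks and at 36.7 and 25.8 CPM at 9 weeks. Cells with a Kit UMI and none of Lalba were at 1989 and 2048 CPM and at 32.9 and 20.8 CPM. In each library the Lalba-positive cells were thus slightly higher. Basal-like cells with contractile expression above the median were at 1969 and 2782 CPM, and those at or below it at 2151 and 3014 CPM, at 8 weeks. Cycling cells were lower at 8 weeks in basal-like and progenitor-like cells, at 1383 CPM (41 control basal-like cells) and 1470 CPM (26 Zeb1 MSKO cells) against 2081 and 2959 CPM in the others, and with 1702 and 1305 CPM against 2045 and 2126 CPM in progenitor-like cells. In hormone-sensing-like cells they were at 109.8 CPM (13 control cells) and 274 CPM (14 Zeb1 MSKO cells) against 132 and 231 CPM, so the libraries went opposite ways.

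The first part of Cebpb is overlapped on the opposite strand by the first part of Tmem189 (chr2:167642608-167689822), away from the 3′ end of either gene. The sources used here do not say whether the counting used strand, and reads from that stretch were not counted apart. Tmem189 was at 20.2, 23.8, 14.5 and 11.4 CPM in basal-like cells (control and Zeb1 MSKO at 8 weeks, then at 9 weeks). Its ages did not overlap either. In progenitor-like cells Tmem189 was at 28.1 to 29.5 CPM at 8 weeks and 18.2 to 21.7 CPM at 9 weeks. It was highest in hormone-sensing-like cells, the epithelial class lowest in Cebpb, at 71.3 to 82.2 CPM and then 42.1 to 51.7 CPM.

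Cebpa (ENSMUSG00000034957, chr7:35119293-35121928, plus strand) was higher at 8 weeks by a much smaller margin. In hormone-sensing-like cells it was at 21.3 and 23.01 CPM at 8 weeks and at 10.1 and 8.90 CPM at 9 weeks, a log2 difference of 1.16 ± 0.20 (SD, n = 2). In basal-like cells Cebpa was at 24.6 and 31.3 CPM against 19.5 and 19.8 CPM, a difference of 0.56 ± 0.23. In both classes the ages did not overlap. In progenitor-like cells it was at 40.8 and 41.4 CPM at 8 weeks and at 35.2 (control) and 18.2 CPM (Zeb1 MSKO) at 9 weeks, so that the difference of 0.67 ± 0.63 came mostly from 1 library. Without the Zeb1 MSKO library of 9 weeks it would be 0.19.

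A Cebpa UMI was found in 4.76% and 4.95% of hormone-sensing-like cells at 8 weeks and in 2.48% and 2.29% at 9 weeks after thinning. For basal-like cells the thinned shares were 5.99% and 7.16% against 4.49% and 4.90%, and for progenitor-like cells 9.35% and 9.08% against 7.89% and 4.44%. T or NK-like cells held one in 0 of 12 and 0 of 18 cells at 8 weeks, which allows shares of up to 25% and 16.7%, so these few cells set no useful background. At 8 weeks the order of mean Cebpa levels was endothelial-like (55.5 ± 3.10 CPM, SD, n = 2), progenitor-like (41.1 ± 0.41), fibroblast-like (35.0 ± 9.95), basal-like (27.9 ± 4.75) and hormone-sensing-like (22.2 ± 1.18). Fibroblast-like cells overlapped both of their neighbours. The hair follicle keratinocyte-like cells were at 108 CPM, with a UMI in 22.9% of 147 cells after thinning. Without thinning the share was 70.7% (62.9 to 77.5), at a median depth of 14772 UMIs.

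Cebpg (ENSMUSG00000056216, chr7:35046422-35056573, minus strand) did not separate the ages in any epithelial class on the log2 scale with TMM scaling. It was at 58.0 and 75.4 CPM at 8 weeks and 65.0 and 59.3 CPM at 9 weeks in basal-like cells. In progenitor-like cells it was at 100.3 and 113 CPM and then 106.5 and 98.5 CPM. In hormone-sensing-like cells it was at 68.5 and 63.5 CPM and then 63.0 and 48.1 CPM, so there the plain CPM did not overlap. With TMM scaling they overlapped narrowly, at a log2 CPM of 5.982 (Zeb1 MSKO, 8 weeks) against 5.985 (control, 9 weeks). The log2 differences were 0.15 ± 0.36, 0.03 ± 0.15 and 0.21 ± 0.19. Luminal progenitor-like cells were the highest of the 3 classes in every library, at 150% to 173% of the basal-like level, and the basal-like and hormone-sensing-like ranges overlapped. Endothelial-like cells were higher still, at 197 and 226 CPM at 8 weeks (and at 10 and 11 UMIs in 7 and 6 cells at 9 weeks). After thinning, a Cebpg UMI was in 21.6% to 23.9% of progenitor-like cells over the 4 libraries.

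Counts over the 3 classes used the TMM-scaled log2 values. Both 8 week libraries were above both 9 week libraries for Cebpb and Cebpa each time, that is for 2 of the 3 genes. The same held for 26.3% of 12904 genes in basal-like, 22.8% of 12863 in progenitor-like and 22.5% of 13209 in hormone-sensing-like cells. Both 8 week libraries were below both 9 week libraries for 26.4%, 24% and 23.3% of genes, and for none of the 3. Nothing is read from these counts, as the contrast chose the genes.

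The other family genes were far from the pattern of Cebpb. Cebpe, a granulocyte factor, had at most 2 UMIs in any epithelial class of a library. Ddit3, which encodes the stress-induced family member CHOP, was at 37.0, 48.4, 32.6 and 27.1 CPM in basal-like cells (control and Zeb1 MSKO at 8 weeks, then at 9 weeks), with the ages apart by 0.57 on the log2 scale. In progenitor-like cells it was at 23.2, 26.7, 26.0 and 22.3 CPM, and the ages overlapped there and in hormone-sensing-like cells.

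Genes that meet C/EBP factors as partners, inducers, regulators or targets were described from lists in the same way. The counts of each list stand beside the shares over all genes given above, which were 26.3% above and 26.4% below at 8 weeks in basal-like, 22.8% and 24% in progenitor-like, and 22.5% and 23.3% in hormone-sensing-like cells. With lists of 15 genes or fewer, nothing particular to a list is read from its counts. Of 8 other zipper factors tested in progenitor-like cells, 3 were above and 1 below at 8 weeks, with a median difference of -0.04. The one below was Atf3, a stress-induced repressor, at 272 and 967 CPM at 8 weeks and 970 and 1429 CPM at 9 weeks. Atf4, the translation-controlled stress factor, overlapped in progenitor-like cells (265, 387, 332 and 325 CPM). In basal-like cells its plain CPM were lower at 8 weeks (346.6 and 356) than at 9 weeks (380 and 368). The list counts, which used TMM scaling, placed it among the overlapping genes there. Of 13 upstream inducers, receptors and kinases tested in progenitor-like cells (of 14 listed), 5 were above and 1 below, with a median of 0.23. Among the 4 most abundant, Tnf, the tumour necrosis factor gene, was at 128 and 76.4 CPM at 8 weeks and 15.7 and 9.10 CPM at 9 weeks. Nfkb1, a subunit of NF-kB, was at 109 and 131 CPM against 82.9 and 85.9 CPM, while Stat3 and Osmr overlapped. In basal-like cells 4 of 13 were above and 0 below (median 0.17), and in hormone-sensing-like cells 7 of 12 were above and 1 below (0.38).

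Regulators of C/EBP protein were counted in the same way, and no difference between the classes was tested. None of the 5 tested separated the ages in progenitor-like cells (median -0.13), 3 were above and 0 below in basal-like cells (0.14), and 2 were above and 2 below in hormone-sensing-like cells (-0.11). Trib1, a pseudokinase that directs C/EBP proteins to degradation, was at 187 and 315 CPM at 8 weeks and 267 and 267 CPM at 9 weeks in progenitor-like cells.

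Known C/EBP targets of the acute phase and innate defence included genes of both directions. In basal-like cells 5 of 13 genes tested (of 15 listed) were above and 3 below at 8 weeks (median 0.28), against 26.3% and 26.4% of all genes. Cxcl1, a neutrophil chemokine, was at 433 and 667 CPM at 8 weeks and 86.5 and 102 CPM at 9 weeks. Lcn2, an iron-sequestering defence protein, was at 1370 and 1737 CPM against 1942 and 2872 CPM, and Socs3, the feedback inhibitor of cytokine receptors, at 228 and 217 CPM against 555 and 752 CPM. So Cxcl1 had the direction of Cebpb and Lcn2 and Socs3 the opposite one. In progenitor-like cells 6 of 11 were above and 5 below (median 0.39). There Cxcl1 was at 1539 and 706 CPM against 66.2 and 31.1 CPM, Ltf, the milk protein lactoferrin, at 2646 and 1949 CPM against 1398 and 1745 CPM, and Lcn2 at 3095 and 2149 CPM against 4298 and 4917 CPM. In hormone-sensing-like cells 5 of 13 were above and 1 below (0.19).

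Milk protein genes, which need Cebpb for their induction in the gland, were not higher at 8 weeks. In progenitor-like cells 0 of 6 were above and 5 below, with a median difference of -2.90. Csn3, kappa-casein and a marker used for this class, was at 4032 and 2979 CPM at 8 weeks against 5613 and 5103 CPM at 9 weeks. Lalba, alpha-lactalbumin, was at 29.1 and 19.7 CPM against 184 and 134 CPM, and Csn1s1, an alpha-casein, at 2.52 and 40.8 CPM against 48.5 and 111 CPM. Basal-like and hormone-sensing-like cells had 3 of the 6 tested each, with 0 above and 2 below (medians -0.73 and -1.29).

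Of the remaining lists, glucocorticoid response genes had 4 above and 2 below of 9 in basal-like cells (median 0.71), 3 and 3 of 9 in progenitor-like cells (0.28), and 4 and 2 of 9 in hormone-sensing-like cells (0.22). Integrated stress response genes had 4 and 0 of 10 (0.12), 4 and 0 of 11 (0.42), and 2 and 4 of 11 (-0.51) in the same order. Adipogenic and lipid genes, targets of Cebpa in fat cells, had 4 of 8 tested in basal-like cells with 2 above and 1 below (1.38). In progenitor-like cells they had 2 and 1 of 5 (0.10), and in hormone-sensing-like cells 3 and 1 of 5 (1.88). Fabp4, listed as a fat cell marker, was at 5.59 and 13.0 CPM against 4.44 and 1.76 CPM in basal-like cells. In endothelial-like cells it was far higher, at 2444 and 1686 CPM at 8 weeks, so here it does not mark fat cells alone. Immediate early genes, which respond to tissue dissociation, had 1 above and 5 below of 12 in basal-like cells (-0.26), 7 and 2 of 12 in progenitor-like cells (0.42), and 8 and 2 of 12 in hormone-sensing-like cells (0.67). Fos overlapped between the ages in all 3 classes, at 569, 717, 531 and 800 CPM in basal-like cells. Jund, a subunit of AP-1, was above in all 3, at 1937 and 3441 CPM against 1054 and 579 CPM in progenitor-like cells and at 1873 and 2582 CPM against 555 and 245 CPM in hormone-sensing-like cells. Junb, another subunit, was below in basal-like cells (1026 and 1101 against 1537 and 1395 CPM) and above in progenitor-like cells (1868 and 2244 against 1311 and 1294 CPM). All of these lists were chosen with earlier results of these data known.

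**Figure D4:**
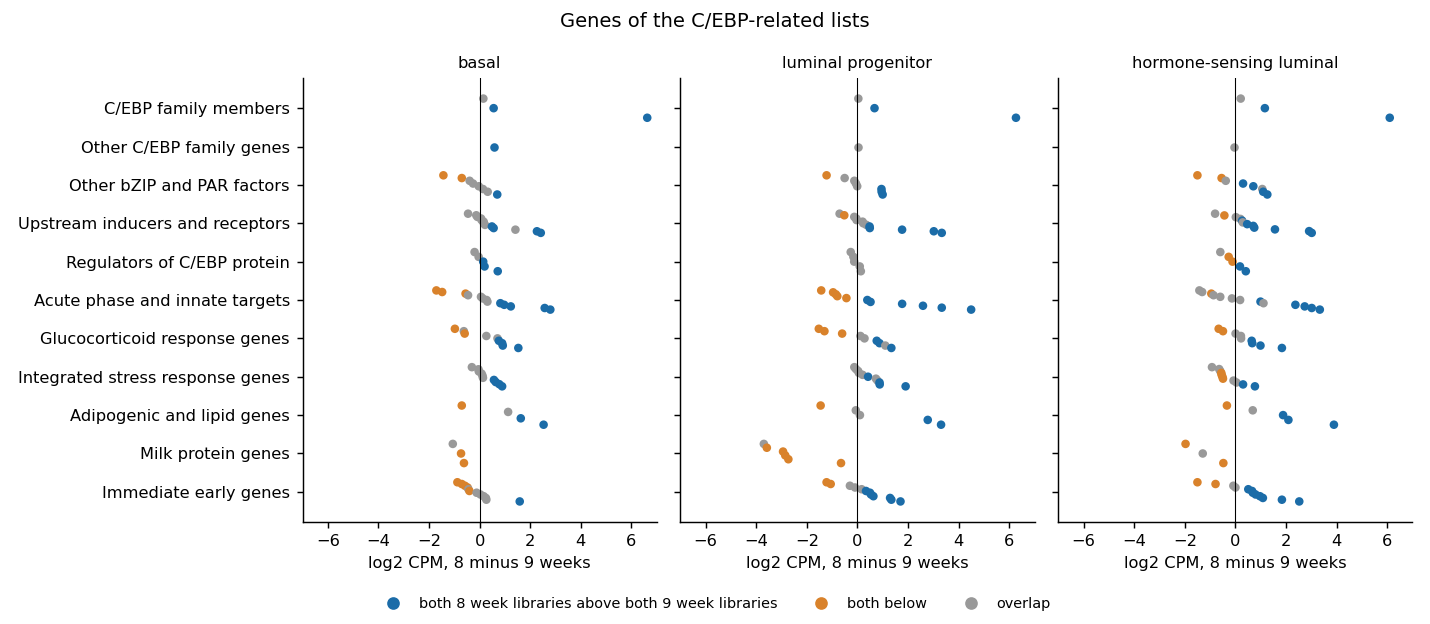
Each point is a gene of a C/EBP-related list, with its log2 CPM at 8 minus 9 weeks on the x axis, for the 3 epithelial classes. Cebpb, at 6.10 to 6.63, lies farther to the right than every other gene drawn, and the milk protein genes of progenitor-like cells lie at the left with a median of -2.90.

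The genes most like each C/EBP gene were found by Pearson r of log2(CPM + 1) over 17 sums of a library and a class with at least 50 cells, among the 7825 genes that averaged 10 CPM or more. These sums share libraries and depth and span both ages, the contrast that chose the genes, so r is a description. Most like Cebpb were Arf6 (r 0.966), a small GTPase of membrane traffic, Rab35 (0.953), a GTPase of endosomal recycling, Siah2 (0.940), a ubiquitin ligase, Ythdf1 (0.939), a reader of methylated RNA, and Wac (0.936). Arf6 was at 234 and 288 CPM in basal-like cells at 8 weeks and at 52.6 and 43.3 CPM at 9 weeks, a gap many times smaller than that of Cebpb. Siah2 was at 134 and 137 CPM against 19.4 and 12.4 CPM.

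Most like Cebpa were Hnrnpd (0.904), an AU-rich RNA-binding protein, Gnai3 (0.893), an inhibitory G protein subunit, Cdyl (0.886), Frat2 (0.879) and Crlf3 (0.863). Most like Cebpg were Ikbkb (0.957), the kinase IKK-beta, Pglyrp1 (0.951), a peptidoglycan-binding protein, Mtmr12 (0.947), Arrdc4 (0.938) and Pald1 (0.933). Ikbkb was at 36.0, 42.7, 46.0 and 52.8 CPM in progenitor-like cells and at 25.7, 29.8, 28.7 and 29.2 CPM in basal-like cells. It was picked by its likeness to Cebpg, so this shared order of the classes is no separate result.

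The comparison of Zeb1 MSKO with control was fitted with 2 libraries per genotype in each class. In basal-like cells the fitted log2 fold change of Cebpb was 0.47 (SE 1.91), with a ratio of 0.48 at 8 weeks and -0.32 at 9 weeks. Cebpa had 0.18 (SE 0.36) and Cebpg 0.10 (SE 0.31) in this class, and both had opposite signs at the 2 ages. In progenitor-like cells the changes were -0.02 (SE 1.94) for Cebpb, -0.42 (SE 0.39) for Cebpa and -0.02 (SE 0.25) for Cebpg. Cebpa was lower in Zeb1 MSKO at both ages here, by -0.07 and -0.96. In hormone-sensing-like cells the changes were 0.84 (SE 2.18) for Cebpb, which was higher in Zeb1 MSKO at both ages (0.85 and 0.56), 0.04 (SE 0.55) for Cebpa and -0.20 (SE 0.21) for Cebpg, which was lower at both ages (-0.08 and -0.35).

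None of these 9 changes passed edgeR's quasi-likelihood test, with the unadjusted p between 0.323 and 0.991 and adjusted p of 0.9999, 0.9996 and 0.9996 in the 3 classes. Of all genes tested 0% were called in basal-like, 0% in progenitor-like and 0% in hormone-sensing-like cells at an adjusted p under 0.05, while 64, 181 and 471 genes had an unadjusted p under 0.05 and DESeq2 called 3, 6 and 39. Likewise 0 members of any list above were called. The SE of Cebpb, about 2 on the log2 scale in this fit, includes the gap between the ages, so the fit says little about a smaller genotype change of Cebpb. With age as a replicate block the change of Cebpb was 0.09 in basal-like, -0.34 in progenitor-like and 0.72 in hormone-sensing-like cells, with edgeR adjusted p of 0.9999, 0.9999 and 0.759. That fit called 23, 1 and 2 genes in the 3 classes and none of the C/EBP genes.

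The genotype effect was also compared between classes in 1 fit with the library as a block. Relative to basal-like cells, the effect on Cebpb was -0.43 in progenitor-like and 0.61 in hormone-sensing-like cells (edgeR unadjusted p 0.0194, adjusted p 1). Leaving out 1 library in turn moved these from -0.67 to -0.18 and from 0.25 to 1.04. For Cebpa the differences were -0.66 and -0.18 (p 0.148, adjusted p 1 in edgeR) and for Cebpg -0.09 and -0.31 (p 0.384, adjusted p 1 in edgeR). Of 14631 genes 0% were called, with 606 at an unadjusted p under 0.05.

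**Figure D5:**
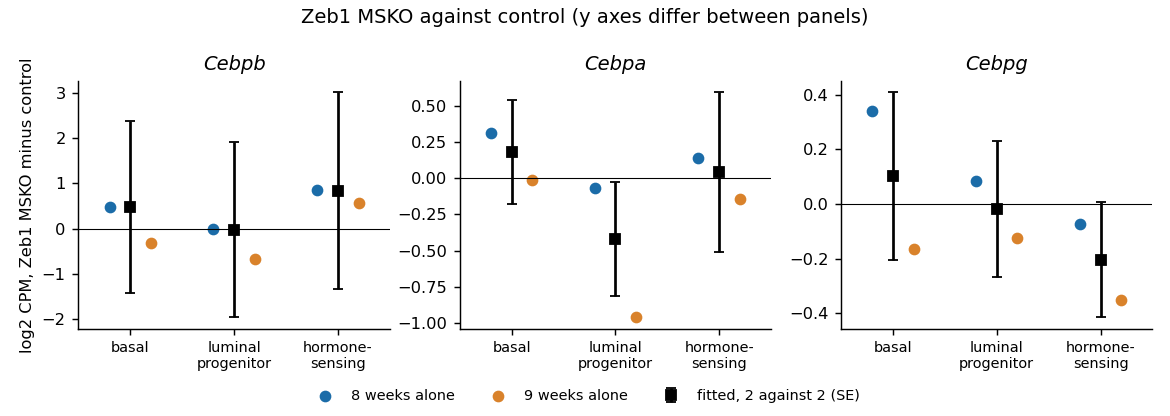
Log2 CPM in Zeb1 MSKO minus control for the 3 genes in each epithelial class, as fitted over 4 libraries (squares, bars are SE) and at each age alone (blue 8 weeks, orange 9 weeks), with a y axis of its own for each gene. The bars of Cebpb reach about 2 to either side and all but 1 of the 9 bars cross 0.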

How the data were processed

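The deposited values are UMI counts per gene and cell barcode, which the authors made with Cell Ranger 2.1.0 on the mm10 build, per the submitters' processing notes, and aggregated over 4 libraries, per the labels. The sources used here give no annotation, cell filter or depth equalisation.

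Cells with at most 10% mitochondrial UMIs and at least 500 genes were kept (36470 of 36884). Each was placed by marker scores (per 10000 UMIs) in 1 class, and cells passing several gates (2211), which may be doublets, or none (601) were left out. No doublet caller was run. Counts were summed per library and class, with each library as 1 replicate (2 of each genotype). Genotype was tested with edgeR 4.0.16 (TMM, filterByExpr, quasi-likelihood test, Benjamini-Hochberg adjustment; R 4.3.3, limma 3.58.1), and the fit was tested on simulated data. DESeq2 1.42.0, no count filter, other gates and scalings, an age block and leaving out each library were alternatives. Thinning to 2500 UMIs was computed per cell from its counts. Tables used pandas 2.3.3, numpy 2.4.6 and scipy 1.17.1.

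The genes and lists were chosen with earlier results of these data known. The text names all matched members, up to 4 genes of a list by mean CPM in a class, and the 5 genes most like each member. The ages of 8 and 9 weeks share a replicate number across genotypes, but the labels tie no animals together. Libraries were therefore not treated as paired. The main fit also left out age, although age was labelled, so the gap between the ages stayed in its error.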

Additional observations from a re-analysis of the deposited data

Results flagged for a closer look

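The log2 ratio of Zeb1 MSKO to control had opposite signs at 8 and 9 weeks in 5 cases, each resting on 1 library per genotype and age, and the differences between the ages were not tested. In basal-like cells the ratio of Cebpb was 0.48 at 8 weeks and -0.32 at 9 weeks, a difference of 0.80. Cebpg in the same cells had 0.34 and -0.17, a difference of 0.51, and Cebpa 0.31 and -0.01, a difference of 0.32. In luminal progenitor-like cells Cebpg had 0.08 and -0.13, a difference of 0.21. In hormone-sensing luminal-like cells Cebpa had 0.14 and -0.15, a difference of 0.29.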

How the results depend on the processing

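Against 0 genes called for genotype by edgeR, DESeq2 called 3 (basal-like), 6 (progenitor-like) and 39 (hormone-sensing-like). Without a filter on low counts 41, 76 and 3 were called, and 10 in the comparison between classes. With age as a replicate block the counts were 23, 1 and 2, and the block also turned Cebpa in hormone-sensing-like cells to -0.0026. Same-numbered libraries, which share an age, deviated together (r across genes 0.363, 0.291 and 0.289), but with 2 pairs and no label tying animals together they were not taken as paired. The stricter gate gave Cebpg 0.024 in progenitor-like and Cebpa -0.012 in hormone-sensing-like cells.

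Leaving out 1 library in turn gave 0 to 39 calls in basal-like cells (29 without Zeb1 MSKO at 8 weeks, 39 without Zeb1 MSKO at 9 weeks), 0 to 1 in hormone-sensing-like cells (1 without control at 9 weeks) and 0 to 63 between classes (10 and 63 without the Zeb1 MSKO library of 8 and of 9 weeks). The lone library of a genotype is then assumed to vary like the others. It unbalances the ages, and Cebpb's genotype change ran from -5.57 to 5.72 (basal-like), -5.63 to 4.94 (progenitor-like) and -4.45 to 5.85 (hormone-sensing-like). For Cebpa it ran from -0.22 to 0.49, -1.08 to 0.025 and -0.75 to 0.64, and for Cebpg from -0.11 to 0.28, -0.085 to 0.035, and -0.39 to -0.05. The class differences ran from -0.45 to 0.13 (Cebpa, hormone-sensing-like minus basal-like) and -0.28 to 0.050 (Cebpg, progenitor-like minus basal-like), with Cebpb at -0.67 to -0.18 (progenitor-like) and 0.25 to 1.04 (hormone-sensing-like). The age difference of Cebpb in hormone-sensing-like cells ran from 5.68 to 6.52, and that of Cebpg from -0.020 to 0.32 (basal-like) and -0.030 to 0.097 (progenitor-like) and 0.03 to 0.38 (hormone-sensing-like). Apart from the imbalance, the cause of these changes was not tested. Thinning lowered all 36 shares of cells with a UMI.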

Other observations

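Of 11673 genes tested in all 3 epithelial classes, 28 were over 8-fold higher at 8 weeks with no overlap between the ages in every class, and 0 were over 8-fold lower. These genes were chosen after their values were seen, and age cannot be told apart from preparation or sequencing run. Beside Cebpb they held fibroblast matrix genes (Dpt, Lum, Pi16, Efemp1), muscle genes (Tnnc2, Tnnt3, Pvalb, Myl1), lymph node or endothelial genes (Ccl21a, Glycam1, Cldn5) and C2cd4b, Cxcl2, Id4, Dusp2, Btg3 and Akirin2. In mean level at 8 weeks, 12, 8 and 8 of the other 27 were above 10 CPM in basal-like, progenitor-like and hormone-sensing-like cells, and 3, 3 and 1 above 100 CPM. The highest of them were Id4 (201 CPM), Cxcl2 (289 CPM) and Akirin2 (110 CPM) in those classes. Of the 28 genes 5 (17.9%), Cebpb among them, have a single exon, against 417 of 12887 (3.24%) of the genes tested in basal-like cells. That background is wider than the 11673 genes the 28 were drawn from, and nothing is read from these shares.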
